A study of Mus musculus with 6 samples.

Results

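Oxidative phosphorylation is carried out by 5 protein complexes of the inner mitochondrial membrane, and the genes described here are the nuclear genes for their subunits. Members were chosen by gene symbol among genes with a messenger RNA entry: Ndufa, Ndufb, Ndufc, Ndufs and Ndufv genes for complex I (38 genes, assembly factors left out), Sdha to Sdhd for complex II (4), Uqcr genes and Cyc1 for complex III (9), Cox4 to Cox8 genes for complex IV (18) and Atp5 genes for complex V (17). This gave 86 of the 24809 genes in the table. Complexes I, III and IV pass electrons from NADH to oxygen and pump protons, complex II feeds in electrons from succinate, and complex V, the ATP synthase, uses the proton gradient to make ATP. Proliferating myoblasts draw much of their ATP from glycolysis, and mitochondrial content is known to rise when they differentiate into myotubes. Some complex IV subunits come in tissue forms, with heart and skeletal muscle forms such as Cox6a2, Cox7a1 and Cox8b. The subunits encoded by mitochondrial DNA are not analysed here.

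The RNA came from C2C12 cells, a mouse myoblast line. Cells overexpressing the homeobox factor Msx1 (n = 3 libraries, called Msx1 libraries here) were compared with control cells (n = 3 libraries), and the question is which transcripts differ when Msx1 is raised. The labels name no time in culture, growth or differentiation medium, vector type or clone, and do not say whether libraries came from separate cultures, so a p-value here reflects no more than the spread among these 6 libraries. All levels are FPKM (fragments scaled by transcript length and by the library's total) summed per gene, and changes are differences of log2(FPKM + 1), Msx1 minus control. Adjusted p is from limma across the 12371 genes that averaged 0.5 FPKM or more, and a gene is called at an adjusted p under 0.05. In a culture, fewer cells that express a gene and less RNA per cell cannot be told apart.

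Msx1 itself read 1004, 943.7 and 912 FPKM in Msx1 libraries, against 7.99, 7.13 and 7.54 FPKM in control libraries. Summed FPKM of all genes was 390439 to 401802 in Msx1 libraries and 409664 to 441835 in control libraries, and 11486 to 11516 genes in Msx1 and 11437 to 11492 genes in control libraries stood at 1 FPKM or more. Read numbers are not used here, so depth is unknown. The myoblast markers Myod1, Myf5, Des and Cdh15 summed to 146 to 156 FPKM in Msx1 and 181 to 183 FPKM in control libraries, with Myf5 and Des called lower. The myotube markers Acta1 and Mymk were called higher and Myh3 and Ckm were below the testing minimum, with sums of 24.2 to 26.6 FPKM in Msx1 and 3.36 to 4.86 FPKM in control libraries. Markers of other cell types were low. Adipocyte markers summed to 0.660 to 1.27 FPKM in Msx1 and 1.44 to 1.79 FPKM in control libraries (Fabp4 called lower, Plin1 and Cidec at 0). Leukocyte markers summed to 1.13 to 1.42 FPKM in Msx1 and 2.84 to 3.63 FPKM in control libraries (Cd68 called lower, Ptprc at 0). Endothelial markers summed to 0.372 to 0.756 FPKM in Msx1 and 0.171 to 0.188 FPKM in control libraries, and epithelial markers to 0.177 to 0.246 FPKM in Msx1 and 0.0608 to 0.125 FPKM in control libraries (Epcam at 0). The part of these markers in the results below was not tested.

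Each of the 5 complexes had subunit genes called lower in Msx1 cells. The ratio of mean FPKM, Msx1 over control, had a median of 0.782 over the tested members. Of 79 members that passed the filter on low values, 54 were called lower, 1 was called higher and 24 were not called. The gene called higher, Cox4i2, reached the minimum of 0.5 FPKM only through the Msx1 libraries. Among all genes tested 32.4% were called lower and 22.0% were called higher. The median change of the members was -0.35 on the log2 scale, against -0.07 over all genes tested, and 77 of the 79 estimates were below 0. No member was lower by 1 or more on the log2 scale. In 57 members every Msx1 library lay below every control library, which held for 36.8% of all genes tested. The higher share of calls over all genes was 40.4% with FPKM as deposited, 50.9% when libraries were scaled by the median of ratios, 55.5% when they were set to equal totals leaving Msx1 out, 45.8% after quantile normalization and 51.4% after a correction for transcript length. The median change was -0.27 for members and -0.0011 for all genes by the median of ratios, and -0.23 for members and 0.03 for all genes at equal totals. It was -0.28 for members and -0.03 for all genes by quantiles, and -0.17 for members and 0.01 for all genes after the length correction.

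**Figure D1:**
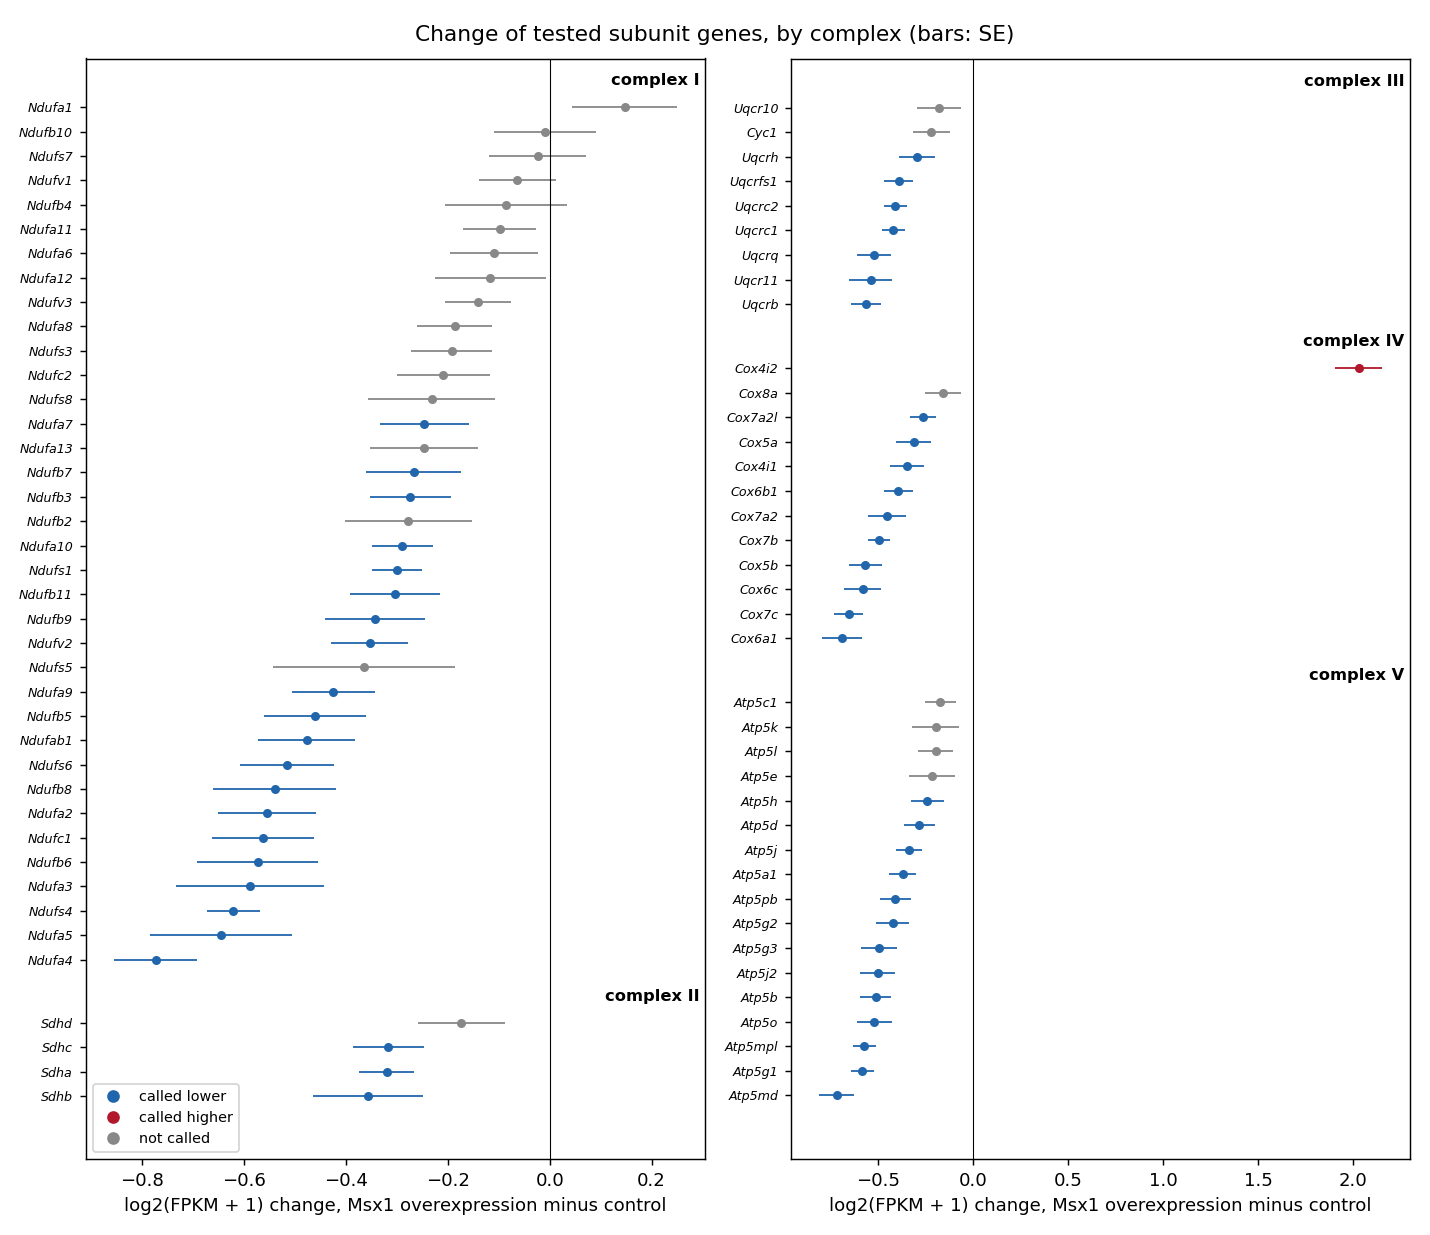
Change of tested subunit genes (all but 1 of the 79) on the log2(FPKM + 1) scale, Msx1 overexpression minus control, grouped by complex, with the limma SE as a bar and colour for the call. Estimates lie between -0.77 (Ndufa4) and 0.15 (Ndufa1) apart from Cox4i2 at 2.03.

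The summed level of the 86 members was 8037, 7914 and 8321 FPKM in Msx1 libraries, against 11881, 9570 and 10465 FPKM in control libraries. The groups did not overlap, and the highest control sum was that of replicate 1. As a share of all FPKM this was 2.05%, 2.03% and 2.07% in Msx1 libraries and 2.69%, 2.34% and 2.45% in control libraries. Complex I sums were 2410, 2414 and 2490 FPKM in Msx1 libraries, against 3501, 2780 and 3021 FPKM in control libraries. For complex II the sums were 280.0, 291 and 311 FPKM in Msx1 libraries, against 389, 327 and 368 FPKM in control libraries. In both complexes every Msx1 library lay below every control library. For complex III they were 749, 744 and 756 FPKM in Msx1 libraries, against 1109, 890.5 and 951 FPKM in control libraries. For complex IV they were 1825, 1796 and 1921 FPKM in Msx1 libraries, against 2832, 2243 and 2506 FPKM in control libraries. For complex V they were 2772, 2669 and 2843 FPKM in Msx1 libraries, against 4050, 3328 and 3619 FPKM in control libraries. Relative to control the mean sums were 0.786 for complex I, 0.813 for complex II, 0.762 for complex III, 0.731 for complex IV and 0.753 for complex V. The same ratio was 0.926 over all genes tested. Ndufa4 is counted in complex I by its symbol. The order of the complexes was not tested, since members of a complex are not replicates.

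**Figure D2:**
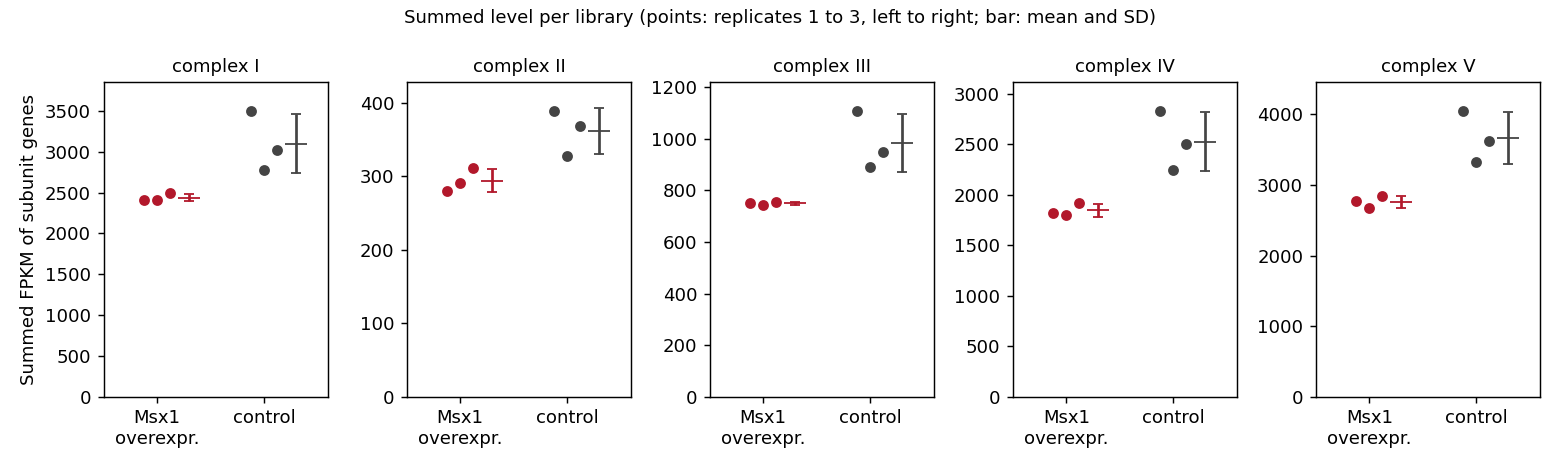
Summed FPKM of the subunit genes of each complex in every library, with the mean and SD of each group (n = 3 each). In every complex the 3 Msx1 libraries sit below the 3 control libraries, and control replicate 1 is the highest.

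Control replicate 1 stood apart for these genes. It was the highest of all 6 libraries for 72 of 79 tested members, and over all genes tested in 25.5%. It was the highest of the 3 control libraries for 73 of 79 members, and over all genes tested in 37.9%. The median deviation of members from their own mean over the libraries was -0.19, -0.21 and -0.13 in Msx1 replicates 1, 2 and 3, and 0.34, 0.05 and 0.17 in control replicates 1, 2 and 3. The median coefficient of variation between replicates was 3.71% in Msx1 and 12.1% in control libraries for the members, against 5.18% in Msx1 and 8.11% in control libraries over all genes tested. Without control replicate 1 the calls were 53 lower and 2 higher, all 53 of them among the 54 above, with a median change of -0.28. That fit called 4243 of all 12367 genes tested lower and 2847 higher. Without control replicate 2, the lowest control library for 68 members, 66 were called lower and 2 higher. The 2 were Cox4i2 and Cox8b, which passed the filter in that fit only through the Msx1 libraries. Of all 12363 genes tested without control replicate 2, 3837 were called lower and 2680 higher.

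**Figure D3:**
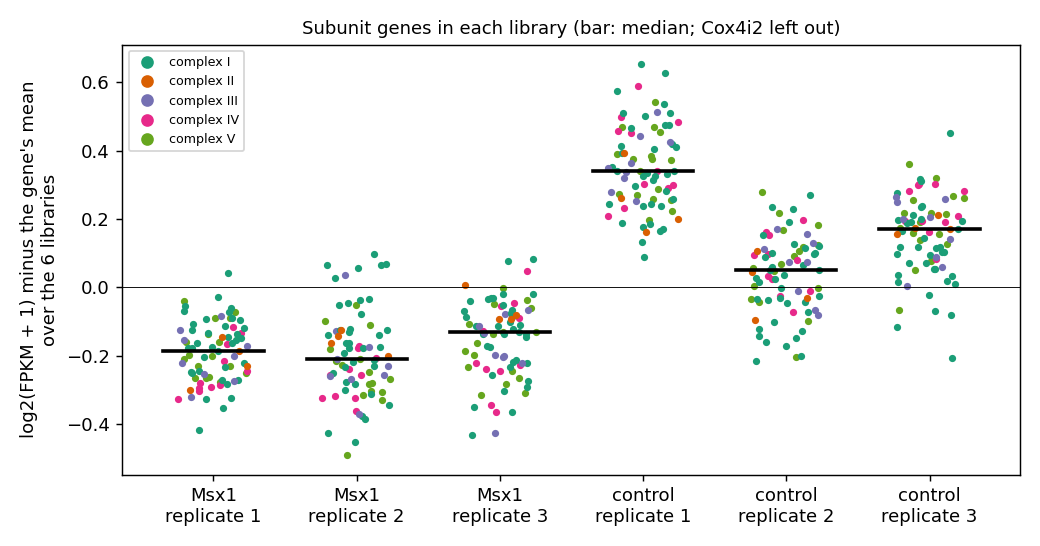
Deviation of each tested subunit gene from its own mean over the 6 libraries, on the log2(FPKM + 1) scale, with 1 point per gene and a bar at the median (Cox4i2 left out). The 3 Msx1 medians lie below 0 and the 3 control medians above it, with control replicate 1 the highest at 0.34.

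These messages are short, with a median transcript length of 732 bases for tested members against 2864.5 bases over the 12234 tested genes with a length. Among all genes tested, 41.7% of those up to 1 kb and 31.6% of those over 1 kb were called lower, with median changes of -0.22 and -0.05. Among the members, 34 of 53 up to 1 kb were called lower (median -0.34) and 20 of 26 over 1 kb (median -0.36). After the level in each library was corrected for transcript length, 40 members were called lower, all among the 54, and 6 were called higher. Among all genes that fit called 3275 of 12235 lower and 3459 higher. Complex I then had 16 lower and 5 higher, complex II 2 lower, complex III 6 lower, complex IV 6 lower and 1 higher, and complex V 10 lower. Of the 54, 40 were called lower in each of the 17 alternatives to the main analysis: 16 of complex I, 2 of complex II, 6 of complex III, 6 of complex IV and 10 of complex V.

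**Figure D4:**
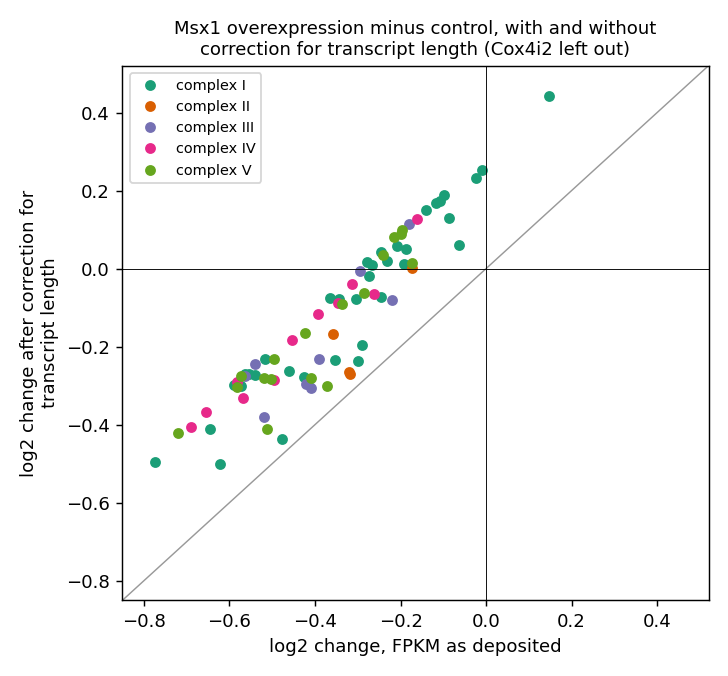
Change of each tested subunit gene with FPKM as deposited (x axis) and after correction for transcript length (y axis), both as log2 differences, Msx1 overexpression minus control (Cox4i2 left out). All points lie above the diagonal, so the correction moved every estimate upwards, and genes of complexes I, II, III, IV and V are found on either side of 0 on the y axis.

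Some promoters of such genes are known to carry sites for the transcription factors NRF1, GABP (of the ETS family) and YY1. RefSeq promoter windows (250 bases before to 50 after the start, GRCm38.p6) were found for 69 of the 86 members and searched on both strands for GCGCA, any base and GCGC in a row (NRF1), CCGGAAG (ETS) and AAGATGGC (YY1). The NRF1 letters were in 16 of 69 members (23.2%) and in 4.78% of all 27025 windows, the ETS letters in 16 members (23.2%) and 9.12% of all, and the YY1 letters in 9 members (13.0%) and 2.88% of all. Any of the 3 was present in 23 of 42 members called lower (54.8%), in 13 of 23 not called (56.5%) and in 15.2% of all windows. The YY1 letters were in 8 of 42 called lower and 1 of 23 not called. The NRF1 letters and the ETS letters were each in 9 of 42 called lower and 7 of 23 not called. These splits were not tested. A match in the letters is a description and not a site. The windows below are, for each complex, that of the gene called lower with the smallest adjusted p whose window holds at least 1 match, which is in capitals; no matches overlap.
Ndufs4 (chr13:114388045-114388344, - strand): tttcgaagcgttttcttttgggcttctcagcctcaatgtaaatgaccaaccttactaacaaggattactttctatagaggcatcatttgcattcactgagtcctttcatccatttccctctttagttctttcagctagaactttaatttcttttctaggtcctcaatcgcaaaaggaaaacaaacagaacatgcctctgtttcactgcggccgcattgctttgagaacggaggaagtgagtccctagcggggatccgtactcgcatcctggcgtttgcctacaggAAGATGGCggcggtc
Sdha (chr13:74350191-74350490, - strand): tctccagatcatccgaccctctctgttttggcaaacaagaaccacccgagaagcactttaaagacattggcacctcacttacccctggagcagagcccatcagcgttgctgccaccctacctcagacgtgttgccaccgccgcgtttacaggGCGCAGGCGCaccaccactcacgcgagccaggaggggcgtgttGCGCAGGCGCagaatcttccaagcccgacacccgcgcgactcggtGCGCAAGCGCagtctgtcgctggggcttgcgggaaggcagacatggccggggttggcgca
Uqcrc1 (chr9:108936398-108936697, + strand): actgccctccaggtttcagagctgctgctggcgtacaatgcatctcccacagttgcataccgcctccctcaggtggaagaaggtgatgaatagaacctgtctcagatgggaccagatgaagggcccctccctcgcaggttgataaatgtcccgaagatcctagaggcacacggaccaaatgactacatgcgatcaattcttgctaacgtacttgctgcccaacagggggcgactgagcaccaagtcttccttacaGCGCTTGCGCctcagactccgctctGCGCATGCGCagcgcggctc
Cox6a1 (chr5:115348909-115349208, - strand): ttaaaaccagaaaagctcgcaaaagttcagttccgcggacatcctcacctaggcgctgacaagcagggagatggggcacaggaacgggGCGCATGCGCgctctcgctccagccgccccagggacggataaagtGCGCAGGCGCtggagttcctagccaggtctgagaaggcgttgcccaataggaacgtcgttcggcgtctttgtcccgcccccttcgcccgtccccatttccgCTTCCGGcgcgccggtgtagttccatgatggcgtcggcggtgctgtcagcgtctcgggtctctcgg
Atp5md (chr19:47090598-47090897, - strand): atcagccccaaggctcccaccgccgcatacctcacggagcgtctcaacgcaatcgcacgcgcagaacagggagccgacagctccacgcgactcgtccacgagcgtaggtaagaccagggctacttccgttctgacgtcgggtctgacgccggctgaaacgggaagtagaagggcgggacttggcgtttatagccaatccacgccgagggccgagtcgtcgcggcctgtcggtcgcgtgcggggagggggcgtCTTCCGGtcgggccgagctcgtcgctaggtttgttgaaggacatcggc
The Ndufs4 window holds the YY1 letters after the start, the Sdha window the NRF1 letters at 3 places before the start and the Uqcrc1 window the NRF1 letters at 2 places after it. That of Cox6a1 holds the NRF1 letters at 2 places and the ETS letters once, all before the start, and that of Atp5md holds the ETS letters once, after the start. In both windows the ETS letters are on the opposite strand and read CTTCCGG as printed. The match nearest the start in the Uqcrc1 window is also on the opposite strand and reads GCGCTTGCGC as printed. All 5 genes were called lower in each of the 17 alternatives.

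Complex I, the NADH dehydrogenase, has core subunits that carry the flavin and iron-sulfur clusters and many accessory subunits around them. Of 37 tested members 21 were called lower, 0 higher and 16 not called, with a median change of -0.29. Among the 7 nuclear core genes 3 were called lower and 4 were not called. Ndufs1, the largest core subunit, read 35.02, 35.7 and 35.5 FPKM in Msx1 libraries, against 41.9, 45.1 and 44.4 FPKM in control libraries. The groups did not overlap (log2 change -0.30, SE 0.05, adjusted p = 0.00128). Ndufv2 averaged 48.6 ± 3.10 FPKM in Msx1 and 62.5 ± 5.41 FPKM in control libraries (log2 change -0.35, SE 0.08, adjusted p = 0.00486). Ndufv1, which binds the flavin and works beside Ndufv2, read 61.4, 61.1 and 61.2 FPKM in Msx1 libraries, against 70.6, 57.3 and 65.0 FPKM in control libraries, and the groups overlapped (log2 change -0.06, SE 0.08, adjusted p = 0.504). The median change of the core genes was -0.23 with FPKM as deposited and 0.01 after the length correction. Ndufs7 was then called higher (log2 change 0.23, adjusted p = 0.0134, range 0.0134 to 0.996 over 17 alternatives). Accessory genes moved as well, with a median of -0.30 as deposited and -0.08 after the correction, where 4 were called higher.

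Ndufs4 and Ndufa4 stood lowest in p among complex I genes. Ndufs4 (chromosome 13, 114287795 to 114388094, GRCm38), an accessory subunit of the NADH-oxidizing arm in which mutations cause Leigh syndrome in people, read 13.9, 13.5 and 13.1 FPKM in Msx1 libraries, against 22.0, 20.7 and 21.3 FPKM in control libraries. All Msx1 libraries were far below all control libraries, at 0.633 of the control mean (log2 change -0.62, SE 0.05, adjusted p = 3.05e-05). Ndufa4 (chromosome 6, 11900372 to 11907450), named for complex I but known to be a subunit of complex IV, read 214, 209 and 233 FPKM in Msx1 libraries, against 397, 336 and 391 FPKM in control libraries. It was the most abundant member with an Nduf symbol and had the largest decrease on the log2 scale of all 79 tested members, to 0.583 of the control mean (log2 change -0.77, SE 0.08, adjusted p = 1.19e-04). Among the 30 tested genes counted as accessory by symbol, Ndufa4 included, 18 were called lower and 0 higher. Ndufa4 is likewise in the counts and sums given for complex I. Ndufa5 averaged 27.5 ± 2.04 FPKM in Msx1 and 44.1 ± 9.41 FPKM in control libraries (log2 change -0.65), Ndufb6 37.2 ± 1.31 FPKM in Msx1 and 56.6 ± 10.8 FPKM in control libraries (log2 change -0.57) and Ndufs6 33.0 ± 0.331 FPKM in Msx1 and 48.0 ± 6.80 FPKM in control libraries (log2 change -0.52). Next to Ndufa4 the most abundant were Ndufb7 and Ndufb9. Ndufb7 read 228, 235 and 239 FPKM in Msx1 libraries, against 325, 251 and 274 FPKM in control libraries (adjusted p = 0.0415; range 0.00194 to 0.876). Ndufb9 read 147, 142 and 144 FPKM in Msx1 libraries, against 217, 169 and 169 FPKM in control libraries (adjusted p = 0.0185; range 0.00284 to 0.295). Their calls were lost in 10 and 4 of 17 alternatives, among them the length correction (log2 changes 0.01 and -0.08) and the fits without Msx1 replicate 2 or 3. Ndufb7 also lost its call without Msx1 replicate 1 or control replicate 3.

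Ndufa1, a small membrane-arm subunit encoded on the X chromosome, had the only estimate above 0 besides Cox4i2. It read 45.9, 47.6 and 47.1 FPKM in Msx1 libraries, against 50.8, 38.5 and 38.4 FPKM in control libraries. The Msx1 libraries lay between control replicate 1 and the other control libraries, and the gene was not called (log2 change 0.15, SE 0.10, adjusted p = 0.264). It was called higher in 4 of 17 alternatives: without control replicate 1 (log2 change 0.28, adjusted p = 0.00121), at equal totals (0.26, adjusted p = 0.0388), under sample weights (0.26, adjusted p = 0.00196) and by the length correction (0.44, adjusted p = 4.83e-04). Its adjusted p over the 17 ran between 4.83e-04 and 0.584. Its span overlaps that of Rnf113a1, and spans of other members, some called lower, overlap other genes too. Where exons of such genes overlap, reads cannot be told apart without strand, and exons were not compared. Ndufb10 averaged 101 ± 8.96 FPKM in Msx1 and 102 ± 12.3 FPKM in control libraries. Ndufs7 averaged 56.6 ± 2.44 FPKM in Msx1 and 57.9 ± 8.32 FPKM in control libraries. The groups overlapped in both genes. Ndufs5 read only 0.619, 0.917 and 0.357 FPKM in Msx1 libraries, against 1.61, 1.04 and 0.690 FPKM in control libraries, while its near-identical copy Ndufs5-ps, left out as a pseudogene, read 45.9, 43.0 and 43.5 FPKM in Msx1 and 60.3, 44.5 and 49.7 FPKM in control libraries. How reads were divided between the pair is uncertain.

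Complex II, succinate dehydrogenase, is also an enzyme of the citric acid cycle. Of its 4 genes 3 were called lower, with a median change of -0.32. Sdha, the flavoprotein that oxidizes succinate (chromosome 13, 74322255 to 74350240), read 71.1, 70.4 and 76.0 FPKM in Msx1 libraries, against 90.9, 87.3 and 94.0 FPKM in control libraries. Its groups were well apart (log2 change -0.32, SE 0.05, adjusted p = 0.00154). Sdhc, a membrane anchor, read 73.4, 77.0 and 81.5 FPKM in Msx1 libraries, against 104, 89.0 and 97.2 FPKM in control libraries (log2 change -0.32, SE 0.07, adjusted p = 0.00575). Sdhb, the iron-sulfur subunit, read 62.4, 69.8 and 72.2 FPKM in Msx1 libraries, against 102, 75.4 and 87.0 FPKM in control libraries. The groups did not overlap (log2 change -0.36, SE 0.11, adjusted p = 0.0233), but the call was lost in 5 of 17 alternatives (range 7.28e-04 to 0.0999), among them those without Msx1 replicate 1 (0.0843) or control replicate 3 (0.0607). Sdhd, the other anchor, read 73.1, 74.2 and 81.4 FPKM in Msx1 libraries, against 93.1, 75.7 and 90.3 FPKM in control libraries, and was not called with all libraries (log2 change -0.17, SE 0.09, adjusted p = 0.122). It was called lower without control replicate 2 (adjusted p = 0.0106) and under sample weights (0.00307; range 0.00307 to 0.977 over 17 alternatives).

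Complex III, the cytochrome bc1 complex, had 7 of 9 genes called lower and 0 higher, with a median change of -0.41. Uqcrc1 and Uqcrc2, the large core proteins on the matrix side, both fell. Uqcrc1 (chromosome 9, 108936648 to 108949641) read 92.1, 90.1 and 92.0 FPKM in Msx1 libraries, against 132, 114 and 122 FPKM in control libraries (log2 change -0.42, SE 0.06, adjusted p = 7.44e-04). Uqcrc2 read 56.4, 55.0 and 60.1 FPKM in Msx1 libraries, against 80.3, 72.2 and 76.1 FPKM in control libraries (log2 change -0.41, SE 0.06, adjusted p = 6.76e-04). In both genes the replicates were close and the groups far apart. Uqcrb, a small subunit near the quinone pocket, read 96.4, 90.3 and 102 FPKM in Msx1 libraries, against 157, 132 and 139 FPKM in control libraries and had the largest decrease of the complex (log2 change -0.56, SE 0.08, adjusted p = 5.34e-04). Uqcrfs1, the Rieske iron-sulfur protein, averaged 44.9 ± 3.64 FPKM in Msx1 and 59.2 ± 4.28 FPKM in control libraries (log2 change -0.39, SE 0.08, adjusted p = 0.00323). Uqcrq and Uqcr11 were also called lower (log2 changes -0.52 and -0.54). Uqcrh, the hinge protein and the most abundant gene of the complex, read 183, 180.1 and 188 FPKM in Msx1 libraries, against 262, 202 and 216 FPKM in control libraries. It was called (adjusted p = 0.0294) but lost the call in 8 of 17 alternatives (range 0.00147 to 0.907), among them those without any of the 3 Msx1 replicates or without control replicate 3. The heme-bearing Cyc1, cytochrome c1, averaged 81.7 ± 1.52 FPKM in Msx1 and 96.0 ± 14.2 FPKM in control libraries and was not called (log2 change -0.22, SE 0.10, adjusted p = 0.0869), nor was Uqcr10 (log2 change -0.18, SE 0.12, adjusted p = 0.223). Cyc1 was called lower without control replicate 2 (adjusted p = 0.0183) and under sample weights (0.0086; range 0.0086 to 0.387).

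Complex IV, cytochrome c oxidase, had 10 of 12 tested genes called lower, 1 higher and 1 not called, with a median change of -0.42. The 6 other members of the complex were below the testing minimum. With FPKM as deposited its share of lower calls was the largest of the 5 complexes. After the length correction it was 6 of 12, against 6 of 9 in complex III and 10 of 17 in complex V. Cox6a1, the general form of a regulatory subunit (chromosome 5, 115345652 to 115348958), read 302, 295 and 299 FPKM in Msx1 libraries, against 571, 425 and 461 FPKM in control libraries. It was the most abundant gene of the complex, and its control libraries were uneven while its Msx1 libraries were close together (log2 change -0.69, SE 0.11, adjusted p = 9.11e-04). Cox7c read 106, 103 and 100.4 FPKM in Msx1 libraries, against 182, 149 and 160.4 FPKM in control libraries (log2 change -0.66, SE 0.08, adjusted p = 2.07e-04). Cox7b, encoded on the X chromosome, read 76.0, 78.6 and 79.5 FPKM in Msx1 libraries, against 114, 103 and 115 FPKM in control libraries (log2 change -0.50, SE 0.06, adjusted p = 1.89e-04). Both small membrane subunits had no overlap between groups. Cox6c read 204, 201 and 213 FPKM in Msx1 libraries, against 357, 269 and 307 FPKM in control libraries (log2 change -0.58). Cox7a2, the general form of Cox7a, read 61.6, 66.3 and 63.9 FPKM in Msx1 libraries, against 103, 76.6 and 85.8 FPKM in control libraries (log2 change -0.45). The zinc-binding Cox5b averaged 155 ± 4.40 FPKM in Msx1 and 231 ± 28.2 FPKM in control libraries (log2 change -0.57). These 6 were called lower in each of the 17 alternatives.

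Cox6b1, Cox4i1, Cox7a2l and Cox5a were called lower with FPKM as deposited and not after the length correction, where complex IV had 6 genes lower. Cox4i1, the general form of the largest nuclear subunit, read 209.5, 215 and 222 FPKM in Msx1 libraries, against 308, 241 and 278 FPKM in control libraries (log2 change -0.35, SE 0.09, adjusted p = 0.0119). Its groups did not overlap, and its adjusted p over 17 alternatives was 1.64e-04 to 0.166. Cox6b1 read 137, 136 and 153 FPKM in Msx1 libraries, against 200.3, 172 and 188 FPKM in control libraries (log2 change -0.39, SE 0.08, adjusted p = 0.00291; range 5.74e-05 to 0.0731). Cox7a2l, which helps join complexes III and IV, lost its call also under the median of ratios and without Msx1 replicate 2 (adjusted p = 0.0116 with all libraries; range 2.90e-04 to 0.274). Cox5a lost it also after that scaling and without Msx1 replicate 1, Msx1 replicate 2 or control replicate 3 (adjusted p = 0.022 with all libraries; range 4.85e-04 to 0.598). Cox8a, the general form of the smallest subunit, read 356, 342 and 398 FPKM in Msx1 libraries, against 453, 367 and 408 FPKM in control libraries, with overlapping groups and no call (log2 change -0.16, SE 0.09, adjusted p = 0.184; called lower without control replicate 2 and under sample weights; range 0.0187 to 0.683).

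Cox4i2 was the only member called higher with FPKM as deposited. It encodes the alternative form of the Cox4 subunit, known from lung and from cells at low oxygen. It read 3.87, 3.08 and 2.43 FPKM in Msx1 libraries, against 0, 0 and 0 FPKM in control libraries, where it is listed at 0 (log2 change 2.03, SE 0.12, adjusted p = 5.31e-06, a change whose size depends on the pseudocount). Since it passed the filter only through the group where it is high, it had to differ, and its p is no more than a description. The span of the gene (chromosome 2, 152753916 to 152765039) overlaps that of Bcl2l1. Exons were not compared, so how far its reads and those of Bcl2l1 can be separated without strand is not known. No fold is given against a group listed at 0. Its share of the summed Cox4 forms was 1.82, 1.41 and 1.08% in Msx1 libraries, against 0, 0 and 0% in control libraries, so Cox4i1 still made up nearly all of the pair.

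The muscle and testis forms were low in both groups and below the testing minimum. Cox6a2, the heart and muscle form of Cox6a1, read 0.344, 0.643 and 0.650 FPKM in Msx1 libraries, against 0, 0 and 0.0636 FPKM in control libraries. All Msx1 libraries were above all control libraries, at under 1 FPKM, and its share of the pair was 0.114, 0.218 and 0.217% in Msx1 libraries, against 0, 0 and 0.0138% in control libraries. Cox8b, the muscle form of Cox8a, read 0.762, 0.663 and 0.582 FPKM in Msx1 libraries, against 0.385, 0.0868 and 0.365 FPKM in control libraries. Its share of the pair was 0.214, 0.193 and 0.146% in Msx1 libraries, against 0.0849, 0.0236 and 0.0893% in control libraries, again without overlap. Cox7a1, the muscle form of Cox7a2, read 0.519, 0.233 and 0 FPKM in Msx1 libraries, against 0.240, 0 and 0 FPKM in control libraries, and its groups overlapped. Its share was 0.837, 0.350 and 0% in Msx1 libraries, against 0.232, 0 and 0% in control libraries. Cox6b2, the testis form, read 0, 0 and 0.1002 FPKM in Msx1 libraries, against 1.00, 0.206 and 0.0954 FPKM in control libraries, a share of 0, 0 and 0.0656% in Msx1 libraries, against 0.497, 0.120 and 0.0507% in control libraries. Ndufa4l2, an alternative form of Ndufa4 known to be induced at low oxygen, read 0.201, 0.200 and 0.257 FPKM in Msx1 libraries, against 0.631, 0.455 and 0.334 FPKM in control libraries, a share of 0.0942, 0.0958 and 0.110% in Msx1 libraries, against 0.158, 0.135 and 0.0852% in control libraries. Every share here was under 1%. When no filter was applied, limma called Cox6a2 higher (adjusted p = 0.00249, its only test) and Ndufa4l2 lower (0.031, its only test). Cox6b2, Cox7a1 and Cox7b2 were not called. Cox8b was called higher by limma without a filter (adjusted p = 0.0254) and without control replicate 2 (adjusted p = 0.0362), its 2 tests. In the latter fit Cox8b passed the filter only through the Msx1 libraries, so that p is no more than a description. Cox7b2 averaged 0.0832 ± 0.0845 FPKM in Msx1 and 0.186 ± 0.1003 FPKM in control libraries, and Cox8c was listed at 0 in all 6 libraries. Over the 9 shares compared here and below, a two-sided exact permutation test had p = 0.1 for Cox4i2, Cox6a2, Cox8b and Atp5g1, the smallest that 3 against 3 libraries allow, and p = 0.225 after adjustment over the 9. The others lay between p = 0.2 and p = 0.4 by the same exact test.

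Complex V, the ATP synthase, had 13 of 17 genes called lower, 0 higher and 4 not called, with a median change of -0.41. In the catalytic F1 head, Atp5b, the catalytic beta subunit (chromosome 10, 128083307 to 128090388), was the most abundant of all 86 members and read 526, 511 and 551 FPKM in Msx1 libraries, against 825, 689 and 758 FPKM in control libraries. Each Msx1 library was below each control library (log2 change -0.51, SE 0.08, adjusted p = 0.00115). Atp5a1, the alpha subunit, read 256, 255 and 270.5 FPKM in Msx1 libraries, against 358, 310.4 and 345 FPKM in control libraries (log2 change -0.37, SE 0.07, adjusted p = 0.00254). Atp5d, the delta subunit of the central stalk, averaged 167 ± 11.4 FPKM in Msx1 and 204 ± 18.4 FPKM in control libraries and was called (adjusted p = 0.0195), but not without Msx1 replicate 1, Msx1 replicate 2 or control replicate 3, nor by the median of ratios or the length correction (range 4.73e-04 to 0.355 over 17 alternatives). Its partners in the stalk were not called. Atp5c1 (gamma) averaged 195 ± 12.1 FPKM in Msx1 and 219.6 ± 20.4 FPKM in control libraries (adjusted p = 0.108). Atp5e (epsilon) averaged 119.8 ± 8.84 FPKM in Msx1 and 141 ± 25.03 FPKM in control libraries (adjusted p = 0.162). Atp5c1 was called lower without control replicate 2 (adjusted p = 0.0331) and under sample weights (0.0117; range 0.0117 to 0.849).

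In the membrane part, Atp5g1, Atp5g2 and Atp5g3 encode the same mature subunit c of the rotating ring, and all 3 were called lower. Atp5g1 read 40.8, 38.9 and 40.2 FPKM in Msx1 libraries, against 64.0, 55.9 and 61.5 FPKM in control libraries (log2 change -0.58, SE 0.06, adjusted p = 1.11e-04). Atp5g2 read 203, 193 and 208 FPKM in Msx1 libraries, against 302, 241 and 271 FPKM in control libraries (log2 change -0.42). Atp5g3 read 183, 172 and 174 FPKM in Msx1 libraries, against 291, 227 and 234 FPKM in control libraries (log2 change -0.50). In all 3 genes the groups were apart. Atp5g1, the least abundant, had a share of their sum of 9.58, 9.62 and 9.51% in Msx1 libraries, against 9.74, 10.7 and 10.9% in control libraries. Atp5g2 made up 47.6, 47.8 and 49.2% in Msx1 libraries, against 46.0, 46.0 and 47.8% in control libraries, and its groups overlapped. Atp5g3 made up 42.9, 42.6 and 41.3% in Msx1 libraries, against 44.2, 43.4 and 41.3% in control libraries. In the outer stalk, Atp5o (OSCP) averaged 143 ± 2.06 FPKM in Msx1 and 206 ± 28.2 FPKM in control libraries (log2 change -0.52, SE 0.09, adjusted p = 0.00201) and Atp5pb (subunit b) 80.3 ± 3.43 FPKM in Msx1 and 107 ± 11.5 FPKM in control libraries (log2 change -0.41, SE 0.08, adjusted p = 0.00335). Atp5j (F6) averaged 109 ± 3.04 FPKM in Msx1 and 138 ± 11.4 FPKM in control libraries (adjusted p = 0.00396) and lost its call only after the length correction (adjusted p = 0.19; range 0.00132 to 0.19). Atp5h (subunit d) read 226, 208 and 231 FPKM in Msx1 libraries, against 290.4, 235 and 263 FPKM in control libraries (adjusted p = 0.044) and lost its call in 11 of 17 alternatives, including the fit without each library but control replicate 2 (range 0.00204 to 0.573).

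The small proteins of the ATP synthase dimer region included the lowest p of the complex. Atp5mpl, a small proteolipid subunit, read 86.0, 81.0 and 80.9 FPKM in Msx1 libraries, against 131, 118 and 122 FPKM in control libraries (log2 change -0.57, SE 0.06, adjusted p = 9.89e-05). Atp5md, also known as DAPIT, read 74.3, 63.9 and 72.6 FPKM in Msx1 libraries, against 132, 109.8 and 108 FPKM in control libraries and had the largest decrease of the complex (log2 change -0.72, SE 0.09, adjusted p = 3.44e-04). Both genes showed a wide gap between groups. Atp5j2 (subunit f) averaged 172 ± 7.26 FPKM in Msx1 and 246 ± 32.0 FPKM in control libraries (log2 change -0.50). Atp5l (subunit g) averaged 163 ± 5.199 FPKM in Msx1 and 188 ± 23.3 FPKM in control libraries and was not called (adjusted p = 0.0972). Atp5k (subunit e) averaged 30.4 ± 0.173 FPKM in Msx1 and 35.4 ± 6.76 FPKM in control libraries and was not called (adjusted p = 0.21), although both were called lower without control replicate 2 and under sample weights.

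Other genes of the pathway were counted over lists chosen by function. Their counts with FPKM as deposited stand beside 32.4% called lower and 22.0% called higher over all genes tested. By the median of ratios 3185 of all 12369 genes were called lower and 3297 higher. At equal totals 2807 of 12373 were lower and 3503 higher, and after the length correction 3275 of 12235 were lower and 3459 higher. Of 15 complex I assembly factors 8 were called lower and 0 higher, with 6 lower and 1 higher by the median of ratios, 5 lower and 1 higher at equal totals, and 5 lower and 2 higher by the length correction. Nubpl, which delivers iron-sulfur clusters to complex I, averaged 6.85 ± 0.302 FPKM in Msx1 and 12.6 ± 1.58 FPKM in control libraries (log2 change -0.79, SE 0.09, adjusted p = 1.55e-04). Ndufaf2 and Ndufaf5 had log2 changes of -0.47 and -0.55. Of 10 factors for complexes II and III 4 were called lower and 0 higher, with 3 lower by the median of ratios, 3 at equal totals and 2 by the length correction. They were led by Ttc19 (log2 change -0.40, SE 0.06, adjusted p = 8.46e-04) and Sdhaf4 (log2 change -0.45, SE 0.09, adjusted p = 0.00382). Uqcc2 averaged 82.0 ± 5.08 FPKM in Msx1 and 122 ± 29.3 FPKM in control libraries (adjusted p = 0.0161) and lost its call without Msx1 replicate 2 (0.0531) and after the length correction (0.0718; range 8.90e-04 to 0.0718). Of 22 tested complex IV factors 8 were called lower and 0 higher, a share near that of all genes. Each of those scalings left 5 lower, with 1 higher at equal totals and 1 higher by the length correction. The lowest p was that of Cmc2 (log2 change -0.53) followed by Taco1 (-0.39) and Cox18 (-0.37). Of 3 complex V factors 2 were called lower, and 1 under each of those scalings. Tmem70, needed to build the ATP synthase, averaged 17.7 ± 1.02 FPKM in Msx1 and 29.7 ± 1.33 FPKM in control libraries (log2 change -0.71, SE 0.06, adjusted p = 3.39e-05). Atpaf2 was called at adjusted p = 0.0485 and lost the call in 12 of 17 alternatives, including the fit without each library but control replicate 2 (range 0.00779 to 0.232).

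Of 11 genes for electron carriers and for exchange across the mitochondrial membranes 9 were called lower and 0 higher, with 7 lower by the median of ratios, 6 at equal totals and 6 by the length correction. The ADP/ATP carrier Slc25a4 averaged 315 ± 11.1 FPKM in Msx1 and 451 ± 33.3 FPKM in control libraries (log2 change -0.51). Slc25a5, another ADP/ATP carrier, averaged 161 ± 9.60 FPKM in Msx1 and 254 ± 26.0 FPKM in control libraries (log2 change -0.65). Cytochrome c, Cycs, averaged 15.5 ± 1.15 FPKM in Msx1 and 22.9 ± 1.83 FPKM in control libraries (log2 change -0.54, SE 0.08, adjusted p = 6.23e-04). In pyruvate oxidation and the citric acid cycle 15 of 17 were called lower, 1 higher and 1 not called, with 11 lower and 1 higher by the median of ratios, 10 lower and 1 higher at equal totals, and 12 lower and 1 higher by the length correction. Pdha1, which admits pyruvate to the cycle, read 68.8, 73.9 and 71.8 FPKM in Msx1 libraries, against 111, 127 and 131 FPKM in control libraries (log2 change -0.77, SE 0.07, adjusted p = 5.27e-05). Its control replicate 1 was the lowest control library, unlike that of most subunit genes. Suclg2 and Dld had log2 changes of -0.54 and -0.55. Idh2, an isocitrate dehydrogenase that reduces NADP, averaged 137 ± 4.16 FPKM in Msx1 and 120.1 ± 7.18 FPKM in control libraries and was called higher (log2 change 0.19, SE 0.06, adjusted p = 0.0269), a call lost without any of the 3 Msx1 replicates and without control replicate 2. Of 13 coenzyme Q genes 6 were called lower, among them Coq7 (log2 change -0.83), Pdss1 (-0.57) and Pdss2 (-0.42), and 2 were called higher, Coq8a (0.34) and Coq10a (0.30).

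Regulators of mitochondrial genes were called in both directions. With FPKM as deposited neither share was above that over all genes tested (32.4% lower, 22.0% higher). Of 17 tested 3 were called lower, 3 higher and 11 not called, with a median change of -0.05. By the median of ratios 1 was lower and 6 higher, at equal totals 1 lower and 7 higher, and by the length correction 1 lower and 4 higher. Higher calls over all genes in these fits were 3297 of 12369, 3503 of 12373 and 3459 of 12235. The regulators' share of higher calls was thus above that of all genes by the median of ratios and at equal totals, and below it after the length correction. These differences were not tested. Esrra and Tfb1m, called lower with FPKM as deposited, lost their calls under each of those scalings. Ppargc1a, the coactivator PGC-1alpha of mitochondrial biogenesis, read 0.930, 1.01 and 0.824 FPKM in Msx1 libraries, against 0.180, 0.310 and 0.307 FPKM in control libraries. The groups did not overlap (log2 change 0.60, SE 0.08, adjusted p = 4.83e-04), but the gene reached the minimum of 0.5 FPKM only through the Msx1 libraries, so its place among those called higher is a description. Nrf1, which binds many respiratory gene promoters, averaged 11.01 ± 0.208 FPKM in Msx1 and 9.79 ± 0.580 FPKM in control libraries and was not called (log2 change 0.15, SE 0.06, adjusted p = 0.0602), but was called higher in 6 of 17 alternatives (range 0.00655 to 0.267), among them that without control replicate 1 (adjusted p = 0.0269). Gabpa, the DNA-binding part of GABP, averaged 14.3 ± 0.833 FPKM in Msx1 and 15.2 ± 1.05 FPKM in control libraries (adjusted p = 0.327, not called). Under sample weights Gabpa was called lower (adjusted p = 0.0459). Yy1 averaged 27.8 ± 1.27 FPKM in Msx1 and 29.7 ± 0.596 FPKM in control libraries (adjusted p = 0.168, not called). Tfam, which packages and transcribes mitochondrial DNA, averaged 8.36 ± 0.369 FPKM in Msx1 and 9.34 ± 0.324 FPKM in control libraries (adjusted p = 0.0723, not called). Tfam was called lower under sample weights (adjusted p = 0.00694) and without control replicate 1 (adjusted p = 0.0422). Ssbp1, the mitochondrial single-strand DNA binding protein, was called lower (log2 change -0.38, SE 0.07, adjusted p = 0.00196), but its most abundant transcript alone had a log2 change of -0.09 (adjusted p = 0.566; range 1.46e-04 to 0.566). Polg2, of the mitochondrial DNA polymerase, was called higher (log2 change 0.30, SE 0.08, adjusted p = 0.0126), and not without Msx1 replicate 2 (0.0521) or for its most abundant transcript (0.0981; range 0.00211 to 0.0981).

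**Figure D5:**
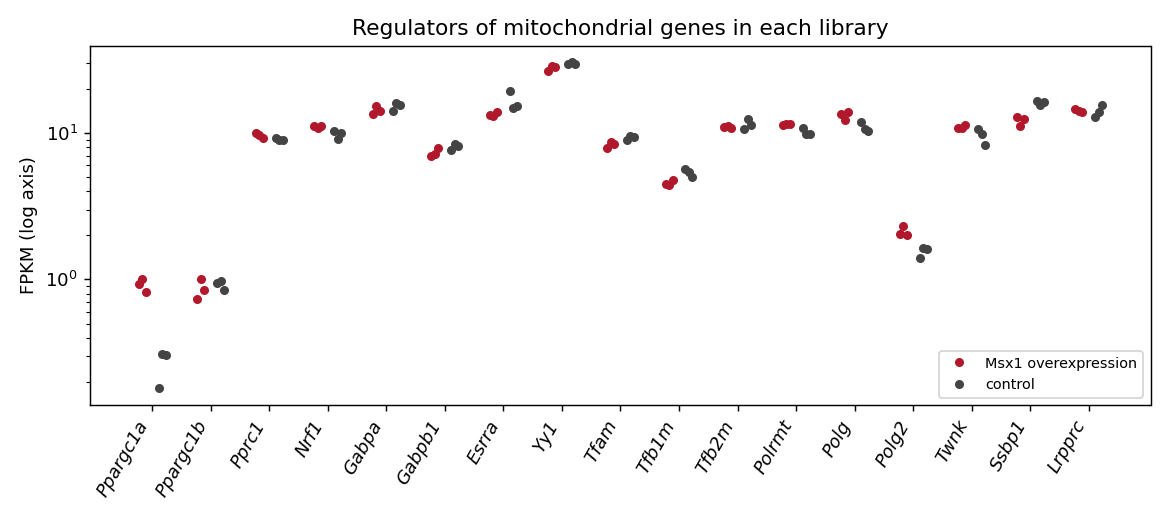
FPKM of the 17 tested regulators of mitochondrial genes in each library, on a log axis, with Msx1 libraries left of control libraries and 1 point per library. Ppargc1a lies between 0.824 and 1.01 FPKM in Msx1 libraries, above all control libraries at 0.180 to 0.310 FPKM.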

How the data were processed

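RNA sequencing libraries of C2C12 cells (3 Msx1, 3 control) were analysed. The authors deposited FPKM for RefSeq transcripts. HISAT2, StringTie and Trimmomatic and the build GRCm38 (mm10) are named in the submitters' processing notes, with roles and versions not given in the sources used here. FPKM scale by a library's total, and StringTie divides reads among overlapping transcripts and near-identical copies by estimation. Control columns are headed by a vector and were matched to the control samples by replicate number. Of 38468 transcripts 38193 received symbols from RefSeq (GRCm38.p6), 156 from GENCODE M21 and 119 none, and FPKM were summed per symbol. The spans of 27 of 86 members overlap another annotated gene. Among them are Atp5a1, Atp5j, Atp5md, Cox7a2, Ndufv2 and Uqcrq, which were called lower, as well as Ndufa1 and Cox4i2. Exons were not compared, and strand-specific counting is not stated.

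limma (3.58.1, R 4.3.3) with an intensity trend was fitted to log2(FPKM + 1), pseudocount 1, over genes averaging 0.5 FPKM or more, with Benjamini-Hochberg adjustment. The fit was tried on simulated data with few changed genes, drawn evenly in direction, and noise independent between genes. In these data many genes were called, more of them lower than higher. The simulation therefore cannot show how the fit behaves here. Isoform shares were compared by exact permutation (SciPy 1.17.1). Lengths are of GENCODE transcripts, and the length correction subtracts, per library, a loess of each gene's deviation from its mean on length. The 17 alternatives were a pseudocount of 0.1, no filter, a filter at 1 FPKM, median-of-ratios, quantile and equal-total scaling, messenger RNA entries alone, the most abundant transcript, the length correction, sample weights, a replicate block and leaving out each of the 6 libraries. Read numbers were not used, so depth is unknown. Members and lists were chosen with earlier results of these data known. Of 118 pathway entries 117 were found. The values of 1 member are not reported here, although it is in the counts and sums. Values in every library are given for, per complex, the 3 genes called lower with the smallest adjusted p, those called higher, the most abundant 3 and the isoform pairs, and for some further members chosen after their values were seen; up to 3 called genes are named per list, and the remaining list genes were likewise chosen after their values were seen.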

Additional observations from a re-analysis of the deposited data

How the results depend on the processing

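The count of subunit genes called lower, 54, was 40 to 66 over the 17 alternatives, lowest after the length correction and highest with sample weights and without control replicate 2. Leaving out each library in turn gave 44 to 66. Subunit genes called higher, 1 with all libraries, numbered 3 without a filter, 2 with equal totals without Msx1, 6 after the length correction and 2 with sample weights, and 1 to 2 with a library left out. Complex IV had 10 genes called lower and 6 after the length correction. Lower calls in the other complexes and calls over all genes (6732, from 5581 to 8770) stayed within 1.5 times of their value in each alternative. The length correction moved 23 of the 79 tested members from below to above 0, among them 3 called lower as deposited, and 4 of the 23 were then called higher (Ndufa6, Ndufa11, Ndufb10 and Ndufs7). The 23 include Atp5h (to 0.0358), Cox8a (to 0.13), Ndufb7 (to 0.00985) and Sdhd (to 0.0023), which were not called after it, and the cause was not tested. The difference in the share of Atp5g1 was -0.85 percentage points, and -3.19 when only the most abundant transcript of each gene was used. With the replicate number as a block, 56 subunit genes were called lower and 1 higher. The numbers share no stated source: deviations of same-numbered libraries correlated at 0.055, 0.23 and 0.037 across genes for replicates 1, 2 and 3. Depth is unknown, and 3 libraries per group limit the precision.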
